A study of Chromochloris zofingiensis with 6 samples.

Results

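The omega-6 and omega-3 fatty acid desaturases described here are 4 genes of the green alga *Chromochloris zofingiensis* (strain ATCC30412), chosen by identifier from the 15037 genes with a value in any library: FAD2 (Cz03g33220.t1), FAD6 (Cz08g04110.t1) and 2 FAD7 genes (Cz06g28130.t1 and Cz04g31180.t1), written below without the suffix. The names are those of the study's annotation and were not checked against sequence. All 4 passed the filter on low values, which left 13886 genes for testing. The 6 libraries, all of poly-A RNA, are 3 replicates from 6 h after transfer to medium with 200 mM NaCl and 3 from 0 h. Whether the same cultures were sampled at both times is not known, and the main tests treated the 6 samples as independent. By the labels the cultures grew in 250 mL columns under continuous light of 80 µE per square metre and second, whereas the methods give a smaller column and a lower light, and both give air enriched to 1.5% CO2. Cells were centrifuged and washed before they were put into the salt medium, and the sources do not settle whether the 0 h cells were taken before or after that step. The 6 libraries include no salt-free sample at 6 h. Salt, time and any difference in handling thus cannot be told apart in the comparison of 6 h with 0 h.

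Membrane-bound desaturases insert double bonds into fatty acyl chains that are already esterified to lipids. In plants and green algae, FAD2 in the endoplasmic reticulum turns oleic into linoleic acid on lipids outside the plastid, and FAD6 carries out the same omega-6 step on plastid lipids. FAD7 is the plastid omega-3 desaturase, which takes linoleic on to alpha-linolenic acid. In plants FAD2 draws its electrons from cytochrome b5, whereas the plastid enzymes use ferredoxin, and the oleic acid itself is made as acyl-ACP by the soluble stearoyl-ACP desaturase, SAD. The location predictions of the study place FAD2 in the secretory pathway (endoplasmic reticulum) and the other 3 genes in the chloroplast.

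Expression is given as deposited FPKM (fragments scaled by the length of the gene and by the mapped fragments of the library), which is corrected for gene length, so that levels of different genes can be set side by side. FPKM is relative to the library, so more RNA of a gene per cell and less RNA of all other genes cannot be told apart. For the test, libraries were scaled by median-of-ratios factors and 0.1 was added before log2, and a gene was called higher or lower at a Benjamini-Hochberg adjusted p under 0.05 in limma if its log2 fold change was also 1 or more in size, up or down. Log2 fold changes on that scale slightly understate the change of low genes. Of all genes tested, limma called 2772 higher at 6 h (20.0%) and 3692 lower (26.6%), so a single call is common in these data. Between 14233 and 14433 genes were listed per library at 6 h and between 14682 and 14697 at 0 h. The 6 h libraries also scattered more: the SD of the residual log2 values was 0.542, 0.289 and 0.631 in replicates 1 to 3 at 6 h, against 0.189, 0.165 and 0.196 at 0 h. Scaling mattered too, since the median log2 fold change of all genes tested was -0.04 with it and -0.34 without it.

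All 4 genes were higher at 6 h than at 0 h and none of them overlapped between the times, but they differed widely in how far they rose. The ratio of mean deposited FPKM was 208 for FAD2, 18.9 for FAD7 Cz06g28130, 9.24 for FAD6 and 1.89 for FAD7 Cz04g31180. The calls use scaled values, on which the change of each of these genes was larger. For Cz04g31180 the log2 fold change was 1.18 scaled and 0.88 unscaled. All 4 were called higher, against the 20.0% of tested genes called in that direction. The 4 were chosen with earlier results of these data known, so this count is not a test of the gene family. A full separation of the libraries, with 6 h higher, was seen for 27.2% of tested genes.

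**Figure D1:**
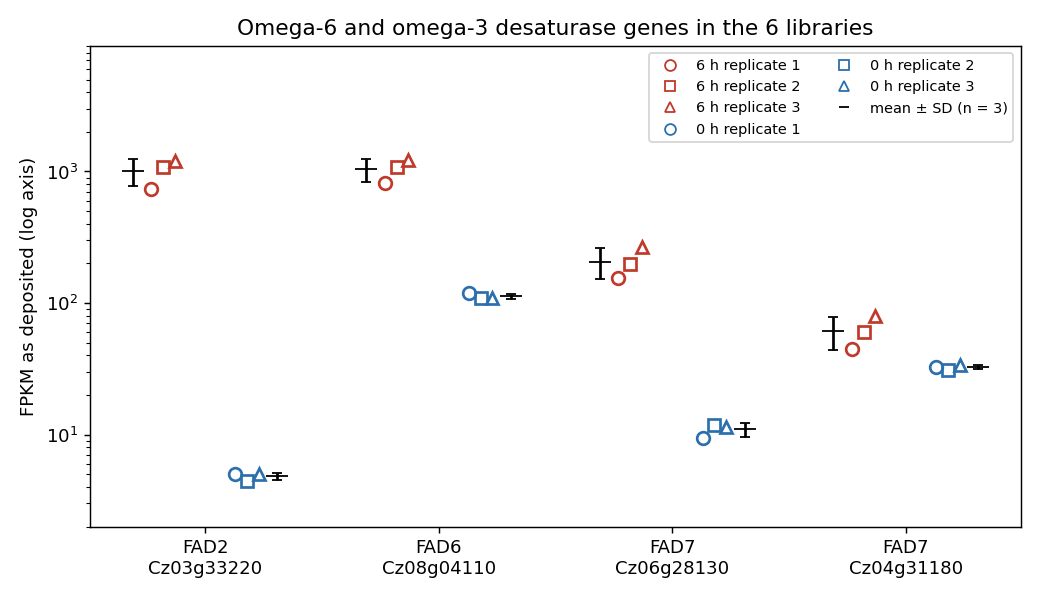
Deposited FPKM (log axis) of the 4 desaturase genes, with the 3 libraries at 6 h in red left of the 3 at 0 h in blue and the mean ± SD in black. FAD2 sat between 742 and 1204 FPKM at 6 h, beside FAD6 at 818 to 1224, while at 0 h it was the lowest of the 4 genes at 4.48 to 5.06.

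FAD2, the omega-6 enzyme of the endoplasmic reticulum, showed the largest change of the group. It had 742, 1080 and 1204 FPKM in 6 h replicates 1, 2 and 3, against 5.06, 4.48 and 4.98 FPKM in the 0 h replicates. FAD2 averaged 1009 ± 239 FPKM at 6 h and 4.84 ± 0.314 FPKM at 0 h (SD, n = 3 each). The lowest library at 6 h thus lay far above every library at 0 h. The log2 fold change was 7.95 (SE 0.18, 95% CI 7.5 to 8.4, adjusted p by limma = 6.29e-06), which ranked 6 among the 13886 genes tested. In its own library FAD2 stood above 98.2, 99.0 and 99.4% of listed genes at 6 h, against 13.9, 13.1 and 13.9% at 0 h. These percentiles use no scaling between libraries.

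FAD6, which performs the same desaturation inside the plastid, was the most abundant of the 4 genes on average at both times. Its values were 818, 1073 and 1224 FPKM at 6 h, against 119, 109 and 110 FPKM (Cz08g04110, replicates 1 to 3) at 0 h. FAD6 averaged 1038 ± 205 FPKM at 6 h and 112 ± 5.30 FPKM at 0 h (SD, n = 3 each). In its own library the gene was above 98.3 to 99.4% of listed genes at 6 h, against 90.6 to 91.8% at 0 h. Its log2 fold change was 3.50 (SE 0.16, 95% CI 3.1 to 3.89, adjusted p by limma = 1.54e-05), the rank being 207 of all genes tested.

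The 2 FAD7 genes, both annotated as plastid omega-3 desaturases, moved by very different amounts. Cz06g28130 had 156, 199 and 265 FPKM at 6 h, against 9.48, 11.9 and 11.5 FPKM at 0 h, with means of 206 ± 55.4 and 10.9 ± 1.28 FPKM (SD, n = 3 each). Its log2 fold change was 4.50 (SE 0.21, 95% CI 4.0 to 5.0, adjusted p by limma = 1.51e-05), rank 79. The other gene, Cz04g31180, had 44.9, 60.1 and 79.5 FPKM at 6 h, against 32.8, 31.2 and 33.8 FPKM at 0 h, with means of 61.5 ± 17.3 and 32.6 ± 1.34 FPKM (SD, n = 3 each). The libraries were separated here as well, but the lowest at 6 h was close to the highest at 0 h.

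For Cz04g31180 the log2 fold change of 1.18 (SE 0.20, adjusted p by limma = 0.00267) had a 95% CI of 0.69 to 1.68, which spans the size limit of 1. This call was lost without 6 h replicate 3, the library with its highest value (0.99), and under each other scaling: unscaled values gave 0.88, TPM gave 0.74 and the upper quartile gave 0.87. With the limit placed inside the test (limma treat) the adjusted p was 0.488. Its direction held under all 17 alternatives, and within each library the gene stood above 70.0, 77.5 and 84.9% of listed genes at 6 h, against 58.0, 55.8 and 58.9% at 0 h. FAD2, FAD6 and Cz06g28130 kept their call under all 17 alternatives to the limma fit.

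**Figure D2:**
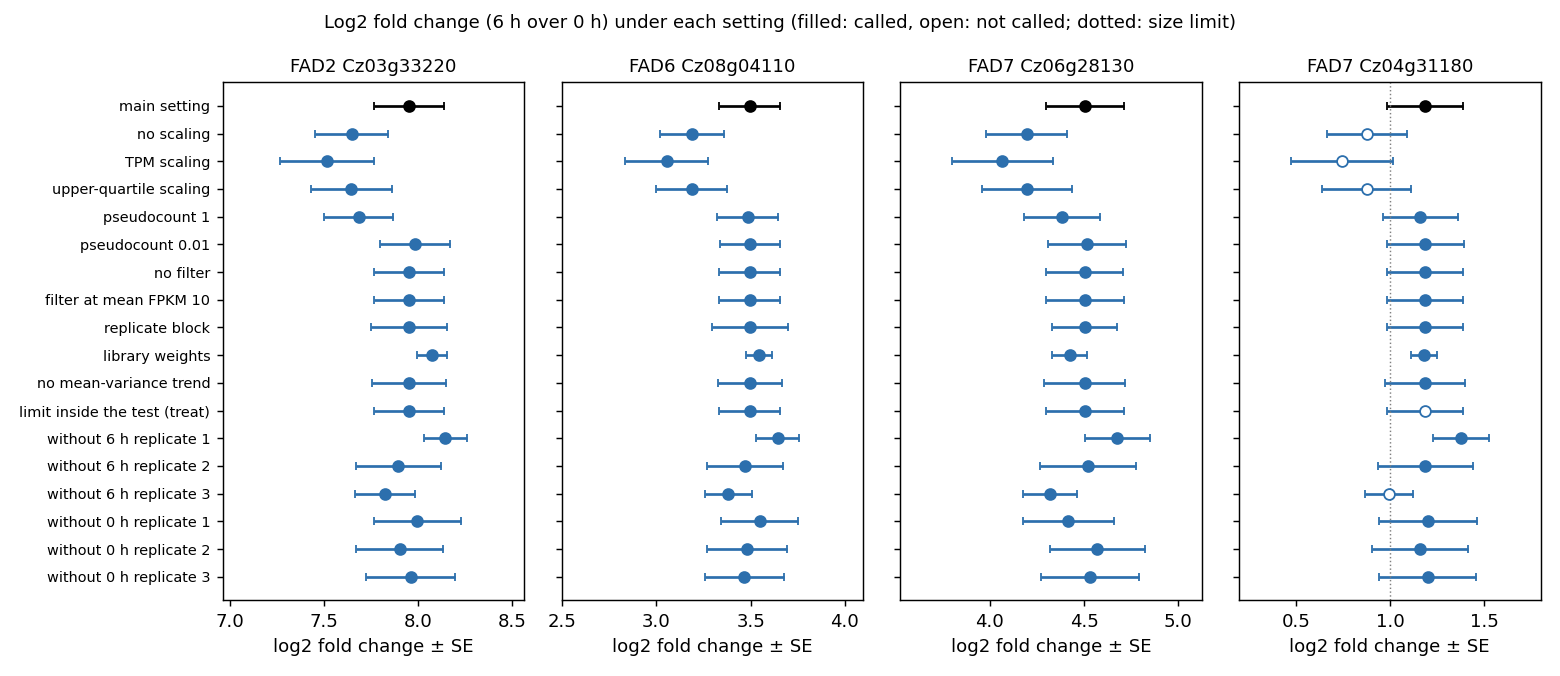
Log2 fold change ± SE (6 h over 0 h) of each of the 4 genes under the main setting (black) and 17 alternatives (blue), on x axes of equal width, with the size limit of 1 dotted and open symbols where the gene was not called. Cz04g31180 is open under 5 alternatives and lies between 0.74 and 1.38, whereas FAD2 lies between 7.52 and 8.14.

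The order of levels differed between the times. At 6 h FAD2 and FAD6 stood together at the top, ahead of Cz06g28130 and then Cz04g31180. At 0 h the order was FAD6, Cz04g31180, Cz06g28130 and FAD2, and no neighbours in it overlapped. The ratio of FAD2 to FAD6 within a library was 0.907, 1.01 and 0.984 at 6 h, against 0.0427, 0.0411 and 0.0454 at 0 h. FAD2 and FAD6 (Cz08g04110) thus did not differ at 6 h beyond the spread of the libraries. The remaining neighbours did not overlap at 6 h.

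Ratios within a library cancel the scaling, and these varied little between replicates. FAD2 made up 47.6, 50.2 and 49.6% of the omega-6 sum (FAD2 plus FAD6) at 6 h, against 4.09, 3.94 and 4.35% at 0 h. Cz06g28130 made up 77.6, 76.8 and 76.9% of the omega-3 sum at 6 h, against 22.4, 27.6 and 25.4% at 0 h. Most omega-3 FPKM thus belonged to Cz06g28130 at 6 h and to Cz04g31180 at 0 h. For both shares an exact permutation test over the libraries (two-sided) gave p = 0.1, which is as low as 3 against 3 can go.

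**Figure D3:**
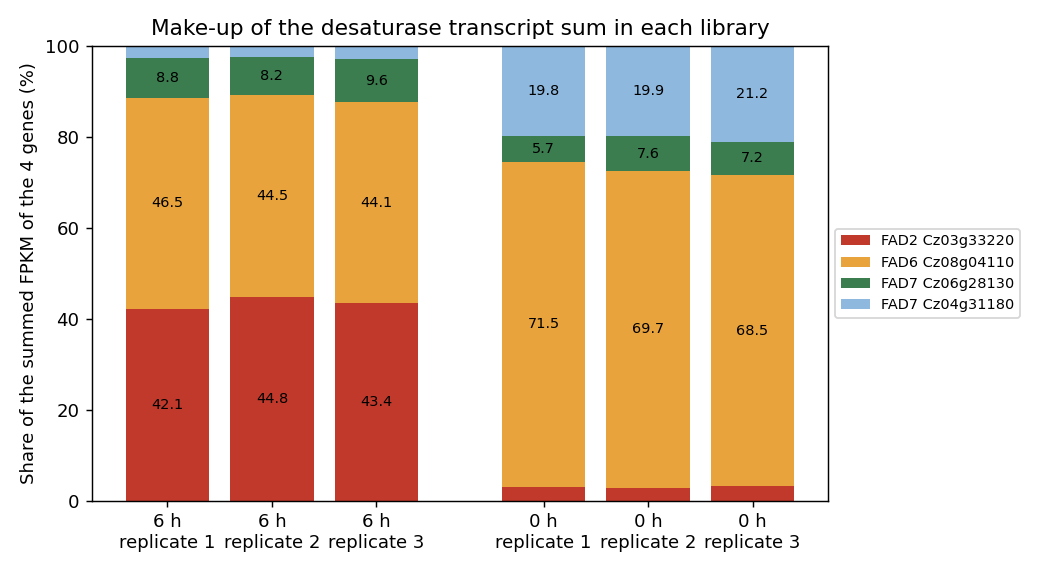
Share (%) of each gene in the summed FPKM of the 4 genes, 1 bar per library, 6 h libraries left of 0 h libraries. FAD2 held 42.1 to 44.8% at 6 h, against 2.86 to 3.11% at 0 h, and Cz04g31180 2.49 to 2.87% at 6 h, against 19.8 to 21.2% at 0 h.

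The change of each pair of genes was also compared directly, as the within-library log2 ratio of the 2 genes, which gave 6 pairs. In all 6 the ratios at 6 h and at 0 h did not overlap, and each exact two-sided permutation p was 0.1, also 0.1 when adjusted over the 6 pairs by the Benjamini-Hochberg method, so that the design cannot pass 0.05. The log2 fold change of FAD2 minus that of FAD6 was 4.46 (SE 0.06), that of FAD2 minus Cz06g28130 was 3.45 (SE 0.16) and that of FAD2 minus Cz04g31180 was 6.77 (SE 0.08). Between the FAD7 genes, Cz06g28130 minus Cz04g31180 was 3.32 (SE 0.12). The smallest difference was that of FAD6 minus Cz06g28130, at -1.01 (SE 0.16), and FAD6 minus Cz04g31180 was 2.31 (SE 0.09).

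Summed by step, FAD2 and FAD6 (Cz08g04110) reached 1559, 2153 and 2427 FPKM at 6 h, against 124, 114 and 115 FPKM at 0 h. For this omega-6 sum the ratio of means was 17.5. The omega-3 genes summed to 200, 259 and 345 FPKM at 6 h, against 42.3, 43.0 and 45.4 FPKM at 0 h, a ratio of 6.15. Both sums were separated between the times (exact two-sided permutation p = 0.1 on scaled values, the smallest possible). The omega-6 sum was 7.78, 8.32 and 7.04 times the omega-3 sum at 6 h, against 2.92, 2.64 and 2.53 times at 0 h (exact two-sided permutation p = 0.1). Relative to the omega-3 genes, the omega-6 genes were thus more abundant in every library at 6 h than in any at 0 h.

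Another gene that the study names FAD6, Cz11g21120, is not among those described here and is predicted outside the named compartments. At 0 h Cz11g21120 averaged 19.5 FPKM, above FAD2 at 4.84 FPKM, and it is left out of the omega-6 sum and shares above. It had 29.3, 31.0 and 31.5 FPKM at 6 h, against 18.5, 20.0 and 20.0 FPKM at 0 h. Its log2 fold change of 0.95 (SE 0.10, adjusted p by limma = 3.69e-04) stayed under the size limit under all 17 alternatives. Adding it to the omega-6 sum gave 2077 ± 445 FPKM at 6 h and 137 ± 4.62 FPKM at 0 h (SD, n = 3 each).

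The other desaturases of the study's lipid list number 9, of which limma called 2 higher and 2 lower at 6 h, with a median log2 fold change of -0.28, beside 20.0 and 26.6% of all genes and a median of -0.04. Higher were the stearoyl-ACP desaturase Cz04g09090 and FAD5 Cz07g00120, a desaturase of the plastid lipid MGDG. Cz04g09090 had 735, 1099 and 1282 FPKM at 6 h, against 56.8, 50.4 and 51.7 FPKM at 0 h, for a log2 fold change of 4.56 (SE 0.21, adjusted p by limma = 1.49e-05). Cz07g00120 had 312, 389 and 431 FPKM at 6 h, against 17.4, 16.3 and 16.7 FPKM at 0 h, for a log2 fold change of 4.78 (SE 0.13, adjusted p by limma = 6.29e-06). Other FAD5 genes, Cz13g01140 (log2 fold change -1.95) and Cz06g00170 (-1.44), were called lower, the call of Cz06g00170 being lost with limma treat (adjusted p = 0.195). Uncalled were FAD4 Cz12g10230 (-0.76) and Cz06g12050 (-0.78), both called lower under the 3 other scalings, SAD Cz13g17200 (-0.28), and UNPLg00012 (0.70), the only desaturase of the list whose libraries overlapped between the times. Without 6 h replicate 1 the value of UNPLg00012 was 1.07, and the gene was called higher.

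**Figure D4:**
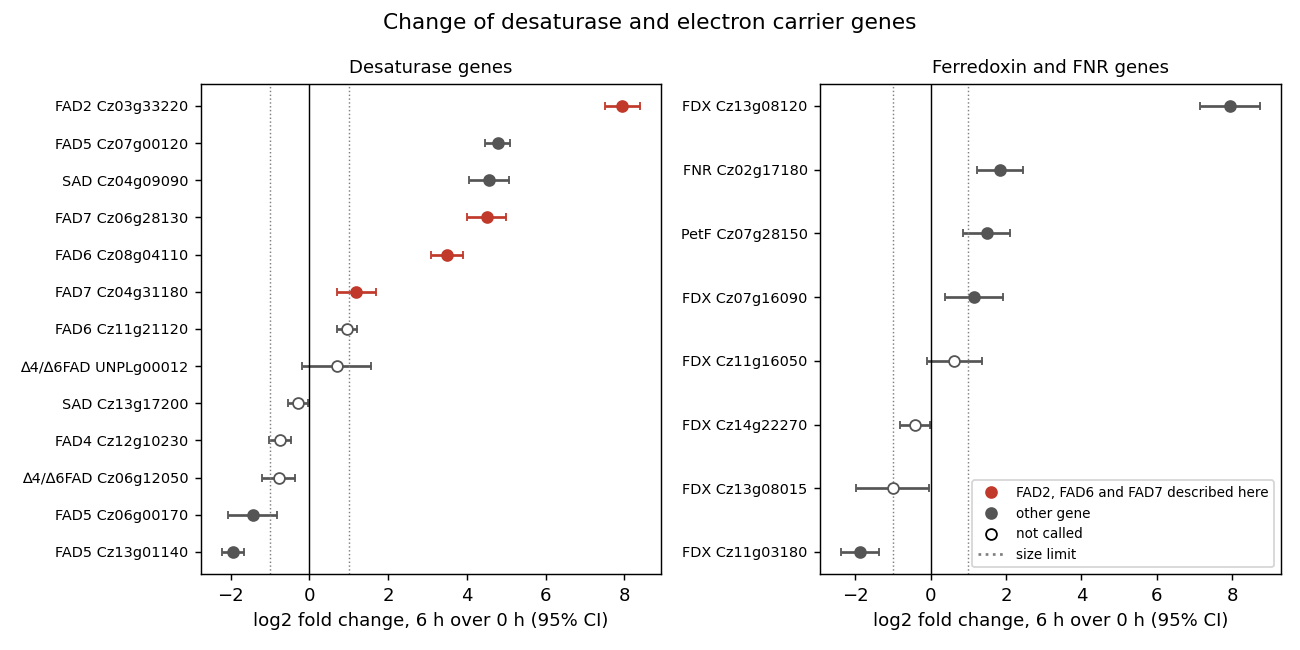
Log2 fold change (6 h over 0 h) with 95% CI from limma of 13 desaturase genes, the 4 described here in red, and of 8 ferredoxin and FNR genes, with open symbols for genes not called and dotted lines at the size limit. FAD2 at 7.95 and the ferredoxin Cz13g08120 at 7.94 lie apart from the other genes shown, which reach 4.78 at most.

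SAD supplies the oleoyl chains on which the omega-6 enzymes act, and its more abundant gene had a similar ratio to them at both times. Cz04g09090 equalled 0.471, 0.510 and 0.528 of the omega-6 sum at 6 h, against 0.460, 0.444 and 0.451 at 0 h. These ratios did not overlap (exact two-sided permutation p = 0.1), but their means, 0.503 ± 0.029 at 6 h and 0.452 ± 0.008 at 0 h (SD, n = 3 each), differed by a factor of 1.11. This ratio was chosen after its values were seen. With the second gene Cz13g17200 included, the ratio was 0.484, 0.519 and 0.536 at 6 h, against 0.683, 0.691 and 0.708 at 0 h. Over all 13 desaturases, the 4 genes described here held 60.1 to 60.6% of the summed FPKM at 6 h, against 38.8 to 39.3% at 0 h.

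Ferredoxin and FNR, the ferredoxin NADP reductase that draws on the same pool of electrons, were examined because FAD6 and FAD7 depend on reduced ferredoxin. Of 7 ferredoxin genes and FNR, limma called 4 higher and 1 lower at 6 h, beside 20.0 and 26.6% of all genes tested. These counts were 3 and 2 under each of the other scalings and 2 and 1 with limma treat. The ferredoxin Cz13g08120 had 5961, 5270 and 3488 FPKM at 6 h, against 16.9, 23.1 and 35.7 FPKM at 0 h, with a log2 fold change of 7.94 (SE 0.33, adjusted p by limma = 1.24e-05), the next rank after FAD2. It made up 42.1 to 44.3% of the ferredoxin sum at 6 h, against 0.558 to 1.19% at 0 h. The abundant PetF gene Cz07g28150 had 7338, 6775 and 4621 FPKM at 6 h, against 2819, 2566 and 2750 FPKM at 0 h (log2 fold change 1.49, a call lost with limma treat at an adjusted p of 0.159). FNR (Cz02g17180) changed by 1.83 and Cz07g16090 by 1.14, a call lost under 9 of 17 alternatives, while Cz11g03180 was called lower at -1.87. Of the single libraries, only leaving out 6 h replicate 1 kept the call of Cz07g16090, at 1.47. Uncalled were Cz11g16050 (0.63), Cz14g22270 (-0.42) and Cz13g08015 (-1.01, adjusted p by limma = 0.0616), which was called lower without 6 h replicate 1 (-1.26) and under the 3 other scalings (-1.31 unscaled, -1.44 on TPM, -1.31 by the upper quartile). Cytochrome b5, the carrier that serves FAD2, was not analysed here.

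The 6 h libraries were not high or low in the same genes. FAD2, FAD6 and both FAD7 genes were lowest in 6 h replicate 1 and highest in 6 h replicate 3, an order shown by 34.7% of all genes tested and by 22.2% of those called higher. Of the other 9 desaturases 6 shared this order and 1 had the reverse. Of the 8 ferredoxin and FNR genes 7 showed the reverse, highest in replicate 1 and lowest in replicate 3, beside 36.6% of all genes tested and 52.8% of those called higher. The ratio of the highest to the lowest library at 6 h was 1.50 for FAD6, 1.62 for FAD2, 1.71 for Cz06g28130 and 1.77 for Cz04g31180. Replicates 1 and 3 are also the 6 h libraries with the larger residual SD, and their part in these values was not tested. Leaving out 6 h replicate 1 or 3 in turn gave log2 fold changes of 8.14 and 7.82 for FAD2, 3.64 and 3.38 for FAD6 and 4.68 and 4.32 for Cz06g28130.

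Genes with the most similar profiles were found by the root mean square difference of log2 scaled values over the 6 libraries, each gene set to its own 0 h mean. Nearest to FAD2 were Cz08g10070 (0.26 on the log2 scale, annotated as Ran GTPase-activating protein), Cz08g16090 (0.32, no name in the tables used), Cz07g07130 (0.49, cinnamoyl-CoA reductase), the ferredoxin Cz13g08120 (0.53) and Cz19g07200 (0.68, no name in the tables used). FAD6 had closer neighbours, led by a pyruvate kinase gene (Cz15g09100, 0.041) and the E3 subunit of chloroplast pyruvate dehydrogenase (Cz07g16120, 0.053). Sterol 14-demethylase Cz06g25080 (0.074), VIPP Cz18g13110 (0.12) and the protein phosphatase gene Cz06g26140 (0.12) followed.

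For Cz06g28130 the nearest genes were the nitrate transporter NRT2.2 (Cz08g30210, 0.14), SAD Cz04g09090 (0.17), biotin carboxylase of the plastid acetyl-CoA carboxylase (Cz13g10110, 0.21), the E2 subunit of chloroplast pyruvate dehydrogenase (Cz05g28130, 0.23) and Cz09g25040 (0.23, no name in the tables used). Cz04g31180 had Cz02g06030 (0.058), UNPLg00107 (0.072) and Cz04g29200 (0.075), which carry no name in the tables used, the AP2 family gene Cz12g11120 (0.076) and a serine protease gene (Cz11g01230, 0.079). No member was among the 5 nearest of another. Similarity over 2 times and 6 libraries mostly reflects a like fold change.

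The wider pathway around the desaturases was counted from the study's lists. Fatty acid synthesis had 17 of 21 genes called higher and 1 lower by limma, with a median log2 fold change of 3.76. Synthesis of membrane lipids outside the plastid, where FAD2 finds its substrates, had 3 of 12 genes called higher and 1 lower (median 0.77). Unscaled, TPM and upper-quartile values each gave 2 higher and 1 lower for it (medians 0.47, 0.34 and 0.47). Limma treat gave 1 higher and 1 lower. For plastid membrane lipids, the substrates of FAD6, 4 of 13 were called higher (median 0.62), and unscaled values gave 2 higher and 1 lower. The paper describes FAD7 as acting on lipids both inside and outside the plastid. TAG synthesis had 5 of 20 called higher and 5 lower (median 0.24, which turns to -0.06 without scaling). Without 6 h replicate 1 these counts were 8 higher and 4 lower, and 3 lower without 6 h replicate 2 or any 1 of the 0 h libraries. With limma treat 4 genes of this list were called higher and the 5 lower calls were lost. Among all genes tested the calls were 20.0% higher and 26.6% lower, with a median of -0.04.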

How the data were processed

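Poly-A RNA of 6 *C. zofingiensis* samples was sequenced, 3 at 6 h of NaCl treatment and 3 at 0 h. The authors filtered and aligned the reads and deposited FPKM per gene and library, with 2 decimals and only for genes above 0. The methods name TopHat and Cufflinks, whereas the submitters' processing notes name HISAT, Bowtie2 and RSEM. The sources used here do not give the genome build, or how reads shared by similar genes were divided. FPKM carry no counts, so the depth behind a value is unknown, no counting interval was computed, and the spread of the replicates measures the precision. The p-values measure only the spread between these samples.

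A gene without a value was taken as 0. Tests covered genes averaging 1 FPKM or more at 1 or both times and used limma 3.58.1 in R 4.3.3 (mean-variance trend, two-sided, time as the only term), after median-of-ratios scaling and a pseudocount of 0.1. Single quantities were compared by exact permutation (scipy 1.17.1). The procedure was tested on simulated data. Their noise was independent between genes and equal in size among the libraries of a time, whereas the real 6 h libraries differed in scatter. The named genes were the 4 members, the other desaturases, the ferredoxins and FNR of the study's tables, and the 5 nearest profiles of each member. The members and lists were chosen with earlier results of these data known. Gene names are those of the study's tables, and no sequence or coordinate was used. As alternatives the scaling was omitted or replaced by TPM or the upper quartile, the pseudocount was set to 1 or 0.01 and the filter was dropped or raised to 10 FPKM. Others were the replicate block, library weights, no trend, limma treat and leaving out each library in turn.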

Additional observations from a re-analysis of the deposited data

How the results depend on the processing

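FAD2, FAD6 and Cz06g28130 kept their call under all 17 alternatives to the limma fit. Cz04g31180 was below a log2 fold change of 1 on unscaled values (0.88), TPM (0.74) and upper-quartile values (0.87) and when 6 h replicate 3 was left out, and was not called by limma treat, where its log2 fold change of 1.18 is the same value under a stricter test. Over the fits with 1 library left out this gene ranged over 0.99 to 1.38. The number of genes called higher was 2772, and it fell to 1925 on unscaled values, 1624 on TPM, 1925 on upper-quartile values and 1384 with treat. The number called lower was 3692, and it rose to 4466 on unscaled values, 4738 on TPM and 4421 on upper-quartile values. With treat it fell to 2417. Genes called higher were 42.9% of the calls, 30.1% on unscaled values, 25.5% on TPM and 30.3% on upper-quartile values. Of 102 values recomputed from the limma fit, 94 kept their direction and side of the threshold, or stayed within 1.5 times for counts of genes, and 0 changed direction. The other 93, for sums, shares, ratios and pair differences, kept their direction, but their permutation p cannot pass the threshold in this design and says nothing about stability. With the nearest profiles ranked by Pearson's correlation instead, 0 of the 5 nearest genes of each member were shared.

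Whether the replicate numbers pair the samples is not known. Same-numbered libraries deviated from their group means with correlations of -0.30, -0.11 and -0.49 across genes, and different-numbered ones with -0.19 to 0.45. Deviations from a mean of 3 libraries depend on each other, so these values cannot settle it. With the replicate number as a block, limma called 2696 genes higher and 3521 lower and no member changed its call, while the lower calls among TAG synthesis genes numbered 3 in place of 5; the adjusted p was 9.31e-04 for FAD2 and 0.00971 for Cz04g31180.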
